A study of Arabidopsis thaliana with 9 samples.

Results

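The comparison described here is between Arabidopsis seeds of the line AtKAI2OE given 0.5 µM KAR2 and seeds of the same line given none. It took in 6 of the 9 libraries of the study, 3 per group, chosen by their labels, and covered all genes of the nuclear and organelle genomes. The other 3 libraries came from untreated seeds of the accession Ara-1 and entered only one alternative fit. Whole seeds were imbibed for 4 days at 4 °C in the dark and then kept for 24 h in the dark at room temperature, after plating under light of 0.3 µmol m-2 s-1. AtKAI2OE carries AtKAI2 behind the constitutive 35S promoter, so the receptor gene is not limited to the cells that normally express it. The labels give the background as Col-0, while the methods of the study place the transgene in the htl-3 mutant of the same receptor gene. The transgene was present in both groups and its reads were not told apart from those of the endogenous gene. The study reports that seeds of this line germinate in the dark on KAR2, and that neither KAR2 nor overexpression alone was enough. The series holds no KAR2-treated seeds without the transgene. The germination stage of the sampled seeds was not tested here, so effects of KAR2 and of stage cannot be told apart. The labels describe the 3 libraries of a group as biological replicates without naming separate seed batches, so the p-values measure the spread between these samples.

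Karrikins are butenolides found in smoke that promote the germination of many plants, and KAR2 is a member of this group. They act through KAI2, an alpha/beta-hydrolase that is related to the strigolactone receptor D14. With the F-box protein MAX2, KAI2 marks the repressors SMAX1 and SMXL2 for degradation. A dry Arabidopsis seed consists mostly of an embryo filled with storage proteins and oil, held in a living endosperm and a dead coat. During germination and seedling establishment the reserves are broken down by proteases, by beta-oxidation and by the glyoxylate cycle, cell walls are loosened and the machinery for protein synthesis and growth is renewed.

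Between 18545549 and 27959978 reads were assigned to genes in each of the 6 libraries, and a further 17.6 to 28.9% of the reads of a library fell in assembled transcripts that name no gene. Values are gene counts scaled by TMM to a common library size (CPM), which are not divided by gene length, so levels are compared between libraries and not between genes. Differences are log2 fold changes of KAR2 over untreated ± SE from edgeR's quasi-likelihood test, and a gene is said to have risen or fallen where the Benjamini-Hochberg adjusted p over all 17226 genes tested was under 0.05. A gene that rose or fell by a given value did so on this log2 scale. The first principal component held 75.5% of the variance and separated the groups. The second, with 13.4%, set untreated replicate 1 apart from untreated replicate 2. Untreated libraries correlated with each other at 0.930 to 0.959 and KAR2 libraries at 0.977 to 0.981, as Pearson's r of log2 CPM across genes.

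For a large part of the genes tested, the TMM-scaled level changed after KAR2. Of the 17226 genes tested, 5140 rose (29.8%) and 4126 fell (24.0%), so that 53.8% changed in either direction. These shares are the background for every family below. At least 2-fold increases were found for 3638 genes (21.1%) and at least 2-fold decreases for 2213 (12.8%), while 778 genes rose and 32 fell at least 16-fold. The 3 values of each group did not overlap for 6336 genes that were higher (36.8%) and 4964 that were lower (28.8%) after KAR2. The median log2 fold change over all genes tested was 0.06. The split of calls depended on how libraries were scaled. Genes that rose were 55.5% of all calls with TMM scaling and 75.8% when libraries were scaled by their total alone. With the second scaling 7105 genes rose and 2267 fell, which is the background for family counts given under it. Scaling by the total shifted the median of all genes by 0.40.

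That shift went with the make-up of the libraries. In untreated seeds the 10 most abundant genes took 20.1% ± 3.09 (SD, n = 3) of gene counts, compared with 9.40% ± 0.857 (SD, n = 3) after KAR2, and the groups did not overlap (exact permutation test, two-sided, p = 0.1, the smallest p that 3 against 3 can give). The number of genes with at least a single count was 17026, 19130 and 18472 in untreated libraries and 20173, 19653 and 20229 after KAR2. Abundant genes fell more often and scarce genes rose more often. Below 1 CPM on average, 34.5% of 1582 genes rose and 7.46% fell. Between 30 and 100 CPM the shares were 26.8% and 35.7% of 3079 genes, and above 1000 CPM 19.4% and 45.5% of 134 genes. Scarce genes had to reach the count filter in some library, and those found in a single group could pass only by differing.

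**Figure D1:**
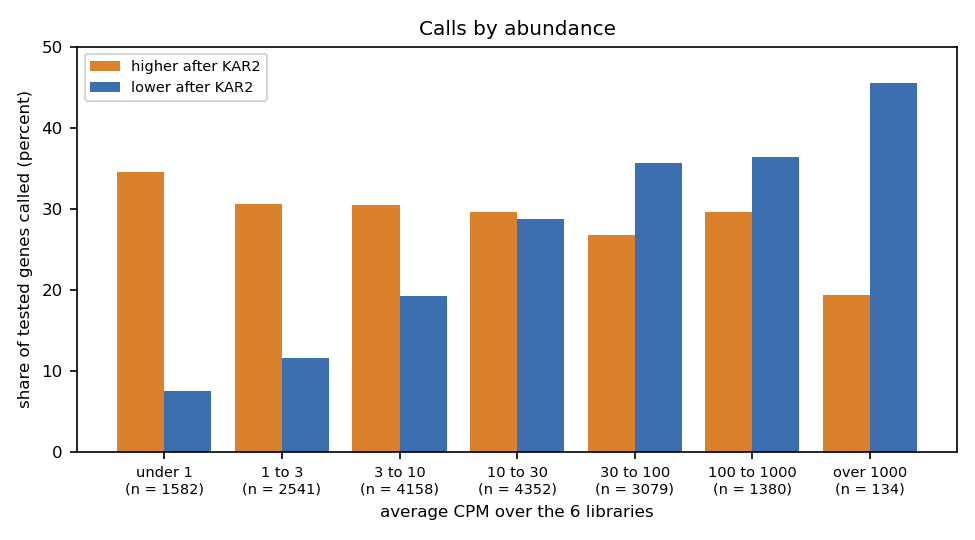
Share of tested genes that rose (orange bars) and fell (blue bars) after KAR2, in percent, by average level in CPM over the 6 libraries. The share that fell grows from 7.46% below 1 CPM to 45.5% above 1000 CPM.

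The receptor gene itself rose. KAI2 (AT4G37470), on chromosome 4 at 17616659 to 17618656 in TAIR10.1, stood at 131, 127 and 202 CPM in the untreated libraries and 557, 577 and 550.2 CPM after KAR2. All 3 treated libraries lay above all 3 untreated ones, as for 36.8% of all genes tested, and the difference was 1.87 ± 0.21 (adjusted p = 0.000357). Transgene and endogenous transcripts contribute to this sum in both groups, and their shares cannot be told apart.

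Markers of the parts of the seed were checked next, since the samples were whole seeds. All 8 embryo storage markers fell, and their summed level was 113183 to 157220 CPM in untreated libraries and 13111 to 14325 CPM after KAR2. The endosperm markers EPR1, MAN7, MAN5, CYP707A2 and NCED6 were read, while GLB2 and CEL8, also planned, matched no gene symbol and were left out. Of the 5 read, 3 fell and none rose, with sums of 1387 to 3472 CPM untreated and 754 to 910 CPM after KAR2. Of 8 seed coat markers, 4 had no count in any of the 6 libraries, among them BAN and TT10, and 1 of the 3 tested rose, GL2, which also acts in the root epidermis. Of 8 root and radicle markers, 5 were tested and 4 rose (RHD6, PLT1, SCR and SHR), with sums of 20.5 to 21.4 CPM untreated and 43.1 to 45.1 CPM after KAR2. All 6 mature leaf markers tested rose, from sums of 138 to 222 CPM to 1402 to 1462 CPM. In whole seeds, fewer cells of a type and less RNA per cell cannot be told apart, and the part of these markers in the family results below was not tested.

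The largest differences in mean CPM between the groups fell mainly on reserve and desiccation proteins in the lower direction and on enzymes of oil and carbon use in the higher direction. Among the 10 genes that lost most were the cruciferins CRA1 and CRU3, the oil body protein OLEO1, the vicilin-like storage protein PAP85, the desiccation proteins EM1, GEA6 and RAB18, the NAD(P)-binding protein gene AT1G54870 and the glycine-rich protein gene AT5G35660. CRU3 (AT4G28520) stood at 46312, 56085 and 44641 CPM in the untreated libraries and 4069.6, 4702 and 4243 CPM after KAR2, a change of -3.50 ± 0.27 (adjusted p = 8.39e-05). PAP85 fell by 3.79 on the log2 scale and GEA6 by 3.48. The tenth gene, AT2G01021, is annotated as an uncharacterized protein on chromosome 2 at 6571 to 6672 (TAIR10.1), and whether its reads come from an mRNA was not tested. Its change of -0.82 ± 0.26 was past the threshold in the main fit (adjusted p = 0.0337) and lost that call under 8 alternatives.

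Among the 10 genes that gained most were 5 enzymes of oil and carbon use. The glyoxylate cycle enzymes ICL and MLS, isocitrate lyase and malate synthase, rose by 0.79 ± 0.21 and 1.12 ± 0.16, and PCK1, the phosphoenolpyruvate carboxykinase that links the cycle to sugar synthesis, rose by 1.84 ± 0.19. ICL stood at 9044, 10946 and 10254 CPM in the untreated libraries and 17353, 18132 and 16937 CPM after KAR2, so it was already abundant without KAR2. Its call (adjusted p = 0.0171) was lost under 5 alternatives. MFP2, a multifunctional protein of beta-oxidation, rose by 2.03 ± 0.20, and ACO3, an aconitase, by 2.18 ± 0.21. The other 5 were the ADP/ATP carrier AAC1, the cytosolic malate dehydrogenase gene c-NAD-MDH1, the catalase CAT2, the translation elongation factor gene AT5G60390 and XYL1, an alpha-xylosidase that trims xyloglucan. XYL1 stood at 80.3, 81.7 and 117 CPM in the untreated libraries and 1821, 1797 and 1883 CPM after KAR2, a change of 4.30 ± 0.22 (adjusted p = 2.66e-05).

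**Figure D2:**
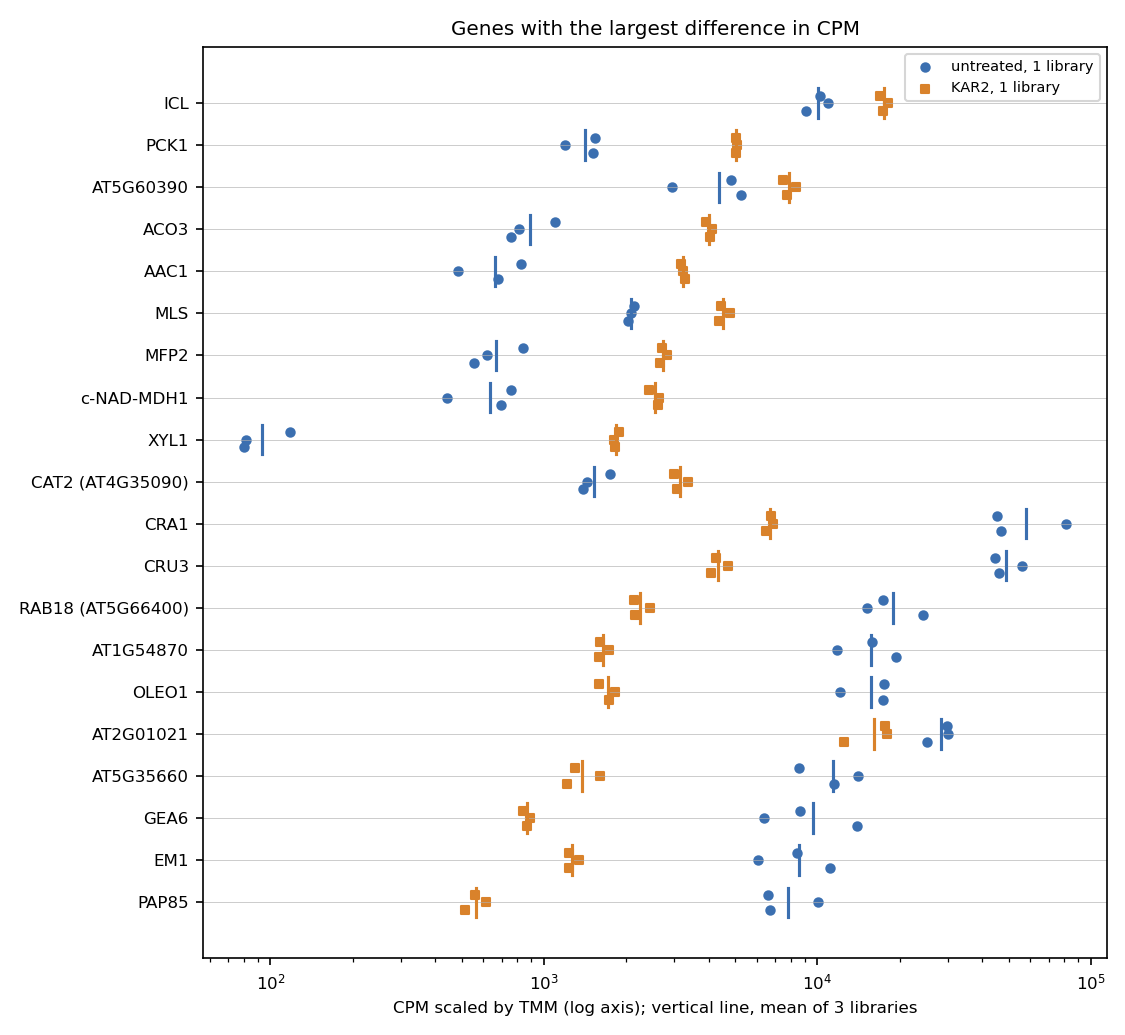
Level of the 20 genes with the largest difference in mean CPM between groups whose values do not overlap, 10 in each direction, in each of the 3 untreated (circles) and 3 KAR2 (squares) libraries, on a log axis. Vertical lines mark group means. CRU3 stands at 44641 to 56085 CPM untreated and at 4070 to 4702 CPM after KAR2.

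Seed reserve transcripts fell as a group. All 8 of the 2S albumins and cruciferins fell, with a median log2 fold change of -3.05 and 108435, 152821 and 100311 CPM in sum untreated against 11946, 13116 and 12411 CPM after KAR2. SESA5, a 2S albumin, stood at 7805, 7676 and 4638 CPM in the untreated libraries and 561, 617 and 579 CPM after KAR2 and changed by -3.52 ± 0.27. Oil body proteins followed the same direction. Of the 9 oleosins, caleosins and steroleosins tested of 14, 8 fell and 1 rose. The steroleosin copies HSD1 (AT5G50600 and AT5G50700) fell by 3.92 and 3.85, but they are near identical. Reads that mapped to several places were removed before counting, so these values rest on the reads that were left.

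Transcripts that accompany desiccation also fell. LEA proteins are hydrophilic proteins laid down as the seed dries, and 8 rose and 31 fell among 42 tested of 62, with a median of -2.03. ATECP31 stood at 3781, 2128 and 2535 CPM in the untreated libraries and 196, 199.99 and 182 CPM after KAR2 and changed by -3.87 ± 0.26. Among small heat shock proteins, which hold unfolded proteins in solution, 2 rose and 16 fell among 30 tested, and HSP17.4 fell from 252, 175 and 140.2 to 9.27, 10.3 and 8.65 CPM. The larger chaperones leaned the other way, as 12 rose and 6 fell among 24 tested. Hsp70-2 and the mitochondrial mtHsc70-1 rose by 2.62 and 2.48, while HSP101, which dissolves protein aggregates, fell by 2.60. Genes of raffinose and galactinol synthesis were split, with 3 rising and 3 falling among 8 tested. GolS1, a galactinol synthase, fell by 2.87, while DIN10, annotated as a raffinose synthase family protein, stood at 7.08, 7.14 and 14.5 CPM in the untreated libraries and 358, 360.3 and 342 CPM after KAR2, a change of 5.20 ± 0.33.

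The promoters of all tested members of the storage protein, oil body and LEA lists, whether they fell or not, were examined for letters known from seed genes, the RY element CATGCA and the ACGTG core of ABA response elements, on both strands in the 200 bases before the annotated start (RefSeq, TAIR10.1). The RY element was found in 7 of 8 storage protein promoters (87.5%) and 7 of 9 oil body protein promoters (77.8%), compared with 5.54% of the 16561 tested genes with a promoter read. ACGTG was found in 6 of 8 storage protein promoters (75%) and 29 of 42 LEA promoters (69.0%), compared with 20.7% of tested genes, while RY was in only 6 of the 42 LEA promoters (14.3%). Such a match is a description of the letters and not a binding site. The 150 bases before the start are given for a pair of storage protein genes and a pair of LEA genes that fell, to show where these letters lie, 5′ to 3′ on the gene's strand. The capitals mark RY and ACGTG on either strand in the first pair and ACGTG on either strand in the second. ACGTG on both strands overlaps in CACGTG.
SESA5, chr5:22239188-22239337 (minus strand): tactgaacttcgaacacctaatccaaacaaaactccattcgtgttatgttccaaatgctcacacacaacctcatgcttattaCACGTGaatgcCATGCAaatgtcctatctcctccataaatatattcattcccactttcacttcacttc
CRU3, chr4:14087406-14087555 (plus strand): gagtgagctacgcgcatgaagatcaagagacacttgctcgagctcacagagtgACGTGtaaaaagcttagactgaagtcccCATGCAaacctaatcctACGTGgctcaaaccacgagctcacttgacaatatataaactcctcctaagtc
AT4G39130, chr4:18228855-18229004 (minus strand): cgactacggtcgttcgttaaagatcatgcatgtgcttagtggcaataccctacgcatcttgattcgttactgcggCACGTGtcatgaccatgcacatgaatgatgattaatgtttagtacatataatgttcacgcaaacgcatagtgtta
AT3G22490, chr3:7970844-7970993 (minus strand): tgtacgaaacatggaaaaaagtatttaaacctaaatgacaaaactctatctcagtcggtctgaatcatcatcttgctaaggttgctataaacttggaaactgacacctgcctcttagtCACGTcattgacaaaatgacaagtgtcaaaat

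AT4G39130, a LEA gene, stood at 49.0, 40.1 and 53.1 CPM in the untreated libraries and 4.37, 2.98 and 3.54 CPM after KAR2, a change of -3.70 ± 0.20. AT3G22490, a LEA gene chosen for the letters in its promoter, stood at 297, 231 and 198 CPM in the untreated libraries and 19.99, 17.4 and 18.5 CPM after KAR2, a change of -3.70 ± 0.19. Both, like SESA5 and CRU3, were picked among members that fell, had an average log2 CPM of at least 3 and held the letters. The pick also required that untreated and KAR2 values did not overlap, so the lack of overlap is not a result.

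Genes for the breakdown of reserves rose for oil and were mixed for protein. In peroxisomal beta-oxidation and the glyoxylate cycle, 16 rose and 1 fell among 21 tested, with a median of 1.34, and the summed level rose from between 16076 and 17931 CPM to between 35940 and 37716 CPM. CSY2, a peroxisomal citrate synthase, and ACX3, an acyl-CoA oxidase, rose by 3.00 and 2.33. The exception was AIM1, which acts in beta-oxidation beside MFP2 and fell by 0.82. Cysteine proteases include enzymes that cut storage proteins in the vacuole, and among cathepsin, vacuolar processing and papain proteases 18 rose and 8 fell among 34 tested. CP1 (AT4G36880) stood at 17.4, 15.1 and 49.9 CPM in the untreated libraries and 739, 703 and 765 CPM after KAR2, a change of 4.74 ± 0.51, and untreated replicate 3 was the highest of the untreated libraries. AT4G11310, also of the papain type, fell by 2.79.

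Serine proteases showed fewer decreases. Among subtilases 16 rose and 2 fell among 21 tested, and among serine carboxypeptidase-like proteins 19 rose and 2 fell among 24 tested, with medians of 2.18 and 3.55 (3.44 for the second with genes at 0 counts set to their bound). The subtilase gene AT5G45650 stood at 0, 0.868 and 2.09 CPM in the untreated libraries and 94.6, 94.3 and 88.5 CPM after KAR2, a change of 6.44 ± 0.70, and scpl44 at 6.81, 3.82 and 10.1 CPM in the untreated libraries and 410.0, 365 and 398 CPM after KAR2, a change of 5.82 ± 0.38. The subtilase gene was close to absent without KAR2. Both genes were named for the size of their change and for lack of overlap, so their separation is not a result. Autophagy genes moved in the other direction, with 1 rose and 13 fell among 24 tested and a median of -0.68. APG8H, of the family that coats the autophagosome membrane, fell by 1.63 and ATG18G by 1.24, while ATG3, the E2-like enzyme that attaches ATG8 to lipid, rose by 0.42. With libraries scaled by their total alone, 6 of the 24 autophagy genes fell, compared with 2267 of all 17226 genes.

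Counts per family are set side by side in the plot of calls by family. The share that rose passed the 29.8% of all genes by a wide margin for expansins, GDSL lipases, serine carboxypeptidases, subtilases and cutin and wax genes, and the share that fell passed 24.0% for LEA proteins, autophagy and small heat shock proteins. Many members of the first families were scarce in untreated seeds. Where a gene had to hold at least 10 counts in each of the 6 libraries, fewer members were tested. Then 16 of 20 GDSL lipases, 21 of 27 cutin and wax genes, 12 of 15 serine carboxypeptidases and 9 of 14 subtilases rose. Over all genes under this filter, 4227 of 14391 rose and 3719 fell, which is the background for family counts given under it.

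**Figure D3:**
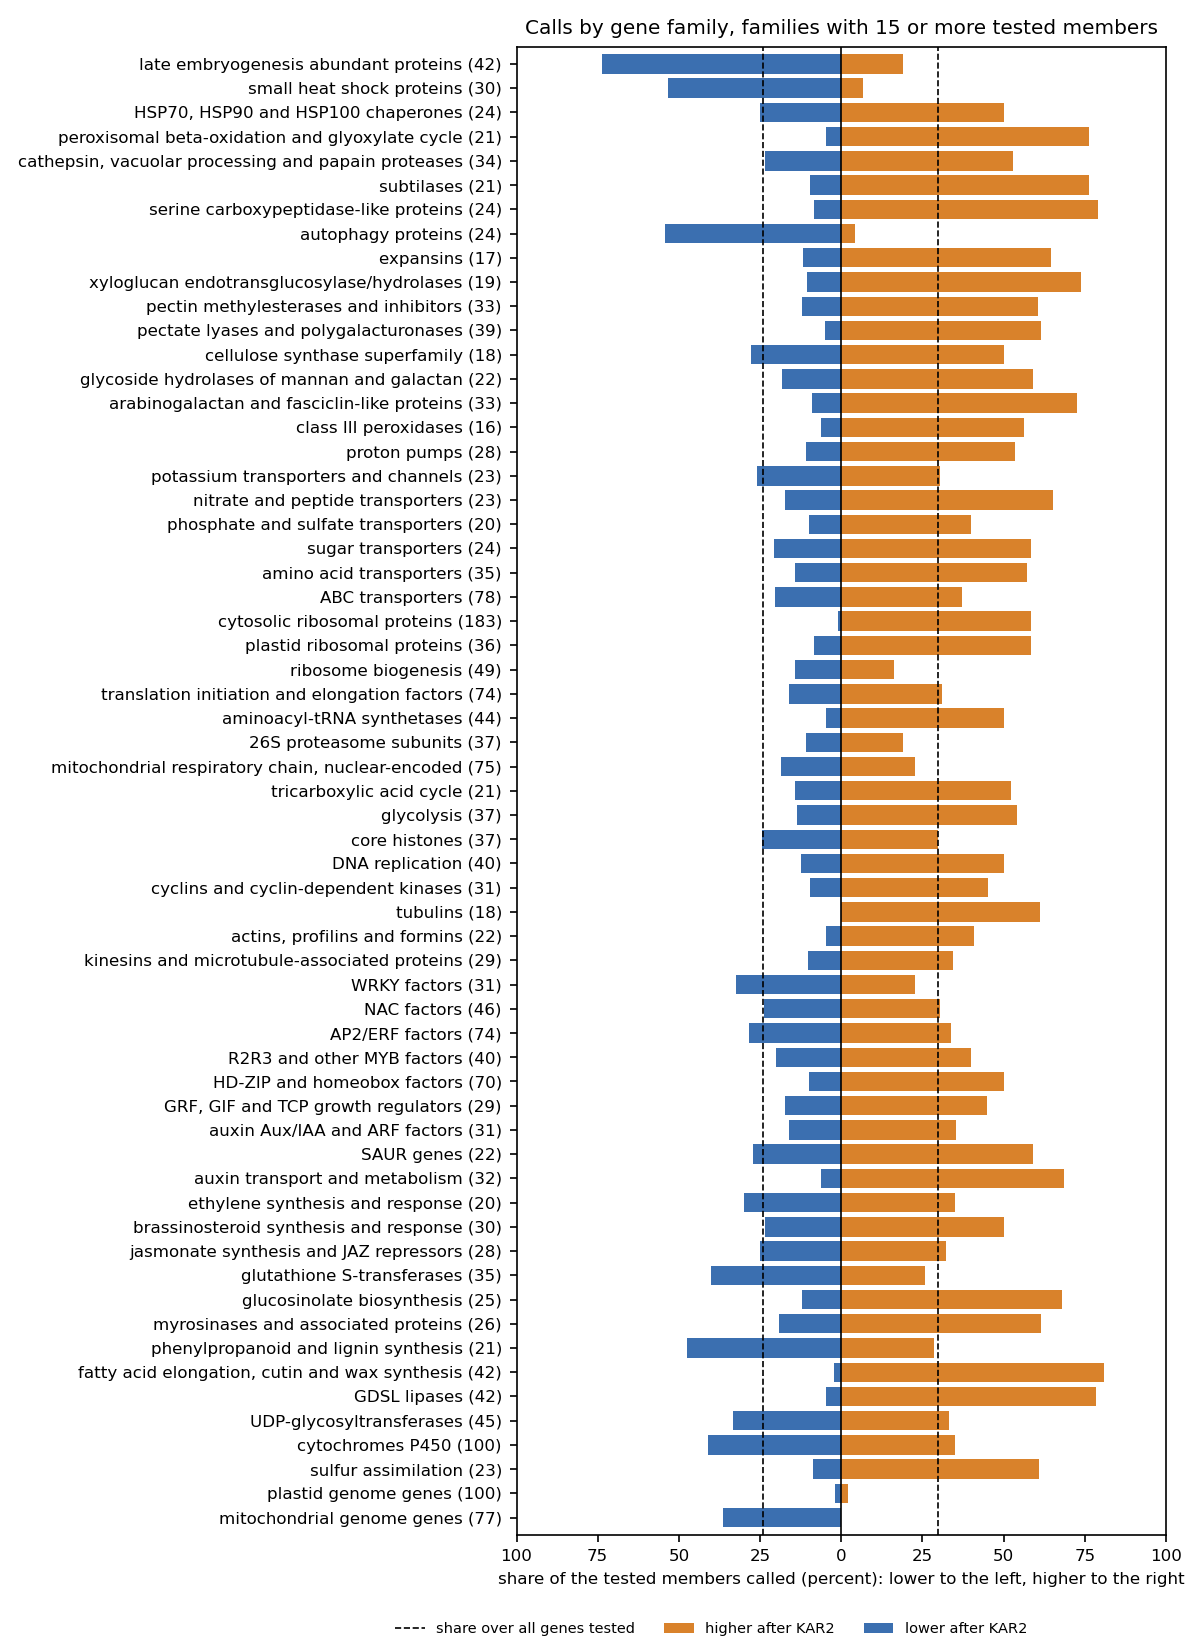
Percent of tested members that rose (bars to the right) and fell (bars to the left) after KAR2, for gene families with at least 15 tested members. Dashed lines mark the 29.8% and 24.0% of all 17226 genes tested.

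Cell wall genes rose across most families. Expansins, which loosen walls without cutting them, were tested for 17 of 36 members, of which 11 rose and 2 fell, with a median of 3.77 and a summed level of 107 to 206 CPM untreated and 2373 to 2537 CPM after KAR2. EXPA1 stood at 9.58, 8.36 and 16 CPM in the untreated libraries and 478, 464 and 420.5 CPM after KAR2, a change of 5.32 ± 0.29 (adjusted p = 3.06e-05), and EXPA10 rose by 5.24. EXLA1, an expansin-like gene, fell by 1.95.

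Enzymes that cut and rejoin xyloglucan (XTH) showed opposite changes within the family. Here 14 rose and 2 fell among 19 tested, with XTH31 and XTH19 up by 4.99 and 4.68. XTH25 stood at 1132, 1011 and 1285 CPM in the untreated libraries and 54.3, 61.0 and 54.6 CPM after KAR2, a change of -4.33 ± 0.17, and XTH11 fell by 2.93. Since XTH25 was abundant in untreated seeds, the sum over the family, 1420 to 1783 CPM untreated and 1362 to 1476 CPM after KAR2, moved little although most members called had risen.

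Pectin genes rose more often than they fell. Among pectin methylesterases and their inhibitors, 20 rose and 4 fell among 33 tested of 129, and PME3 rose by 5.17. Among pectate lyases and polygalacturonases, which cut pectin, 24 rose and 2 fell among 39 tested, with a median of 2.06. With at least 10 counts in each library, 13 of them rose and 1 fell among 22 tested, with a median of 0.77. In both families most members were not tested for lack of counts.

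Of glycoside hydrolases listed for mannans and galactans, which are polymers of the endosperm wall among others, 13 rose and 4 fell among 22 tested. Their summed level was 386 to 462 CPM untreated and 3009 to 3196 CPM after KAR2. The list also holds a beta-xylosidase family member, so it is not limited to enzymes of these polymers. This member, BXL2, rose by 5.02 and BGAL3, a beta-galactosidase, fell by 2.24. The endosperm markers named above fell or were not called over the same libraries.

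Wall glycoproteins rose too. Among arabinogalactan and fasciclin-like proteins 24 rose and 3 fell among 33 tested, with FLA2 and FLA9 up by 5.11 and 4.25 and AGP7 down by 2.18. Of 7 extensins and proline-rich proteins tested 5 rose (3 without KAR2 replicate 1 or 3), and of 16 class III peroxidases, which cross-link or loosen walls, 9 rose and 1 fell. The peroxidase gene AT2G22420 rose by 5.51. In the cellulose synthase superfamily 9 rose and 5 fell among 18 tested, a share of decreases close to that of all genes.

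Water channels of the plasma membrane mostly rose. Of 10 plasma membrane aquaporins tested, known as PIPs, 7 rose and 2 fell. PIP1C and PIP2;8 rose by 4.65 and 4.28, and PIP1;5 fell by 0.79. The tonoplast aquaporins, whose makeup is known to differ between seed storage vacuoles and the vacuoles of growing cells, were nearly all untested or scarce. BETA-TIP stood at 2498, 2235 and 3077 CPM in the untreated libraries and 356, 412 and 358 CPM after KAR2 and fell by 2.79, while GAMMA-TIP rose from 0.113 to 2.49 CPM on average.

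Proton pumps supply the gradient that drives uptake, and among the plasma membrane, vacuolar and pyrophosphate-driven pumps 15 rose and 3 fell among 28 tested. HA2, a plasma membrane ATPase, stood at 33.2, 35.1 and 70.7 CPM in the untreated libraries and 653, 645 and 598 CPM after KAR2, a change of 3.77 ± 0.33, and AVP1, the vacuolar pyrophosphatase, rose by 1.88. The untreated replicate 3 was again highest within its group for HA2.

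Carriers of nutrients rose more often than all genes did. Of amino acid transporters 20 rose and 5 fell among 35 tested, of nitrate and peptide transporters 15 rose and 4 fell among 23 tested, of phosphate and sulfate transporters 8 rose and 2 fell among 20 tested and of sugar transporters 14 rose and 5 fell among 24 tested. SUC1 and SUC2, sucrose-proton symporters, rose by 5.10 and 3.70, the amino acid permease AAP6 by 5.04 and UMAMIT30 by 5.22. GTR2, a glucosinolate transporter, rose by 2.65, while AT1G68570 of the same family fell by 3.59. PHT3;1, a mitochondrial phosphate carrier, rose by 3.14.

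Potassium transporters were split, with 7 rose and 6 fell among 23 tested (3 fell without KAR2 replicate 1 and 10 without untreated replicate 1). KUP3 stood at 0, 2.05 and 0 CPM in the untreated libraries and 90.7, 76.6 and 86.1 CPM after KAR2, a change of 6.77 ± 0.99, whose large error goes with its counts of 0 in a pair of untreated libraries. ABC transporters were close to all genes, with 29 rose and 16 fell among 78 tested (9 and 10 fell without KAR2 replicates 1 and 2).

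The cytosolic ribosomal proteins rose together by a modest amount. Of 194 members 183 were tested, 107 rose (58.5%) and 2 fell, with a median log2 fold change of 0.83. Their summed level was 80424, 36604 and 60201 CPM in the untreated libraries and 90836, 92748 and 83959 CPM after KAR2, so the untreated libraries differed more from each other than the treated ones did. The number that rose was 71 without KAR2 replicate 2, 150 with libraries scaled by their total alone, and between 71 and 130 over all 6 leave-one-out fits.

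The members with the largest increases were AT4G25890, a 60S acidic ribosomal protein gene, and AT3G53890, of the S21e type, which rose by 2.64 ± 0.26 and 2.60 ± 0.22. A further pair, chosen for the letters in its promoters described below, was taken from members that rose without overlap of replicates. AT1G29965, a protein of the L18ae type, stood at 7.62, 10.1 and 9.80 CPM in the untreated libraries and 54.1, 50.4 and 55.4 CPM after KAR2, a change of 2.53 ± 0.15 (adjusted p = 3.49e-05). AT5G67510, annotated as a translation protein SH3-like family member, stood at 26.9, 13.5 and 20.5 CPM in the untreated libraries and 125, 112 and 112 CPM after KAR2, a change of 2.52 ± 0.25. In both the treated values were alike, and they lay above all untreated values as the choice required. The members that fell were AT5G39850, of the S4 type, by 0.88, and AT2G44860, of the L24e type, by 0.53, and the second lost its call under 6 alternatives.

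Ribosomal protein promoters in plants often hold the telo box AAACCCTA and site II elements TGGGCC or TGGGCT. Searched on both strands in the 200 bases before the start, the telo box was found in 32 of 183 ribosomal protein promoters (17.5%) and site II in 123 (67.2%), compared with 3.04% and 23.2% of the 16561 tested genes. Both were found in 14.2% of ribosomal protein promoters and 1.17% of tested genes. The 150 bases before the start of AT1G29965 and AT5G67510 are shown as members that rose and hold both, with capitals for the telo box and site II on either strand. They are read from RefSeq (TAIR10.1), 5′ to 3′ on the strand of the gene.
AT1G29965, chr1:10499463-10499612 (minus strand): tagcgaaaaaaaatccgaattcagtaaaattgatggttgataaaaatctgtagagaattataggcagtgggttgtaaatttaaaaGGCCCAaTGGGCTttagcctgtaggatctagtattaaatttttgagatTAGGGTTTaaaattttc
AT5G67510, chr5:26938499-26938648 (minus strand): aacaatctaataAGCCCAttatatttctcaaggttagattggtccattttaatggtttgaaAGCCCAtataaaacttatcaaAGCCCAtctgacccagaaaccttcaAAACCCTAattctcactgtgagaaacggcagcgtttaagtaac

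Other parts of the protein machinery showed smaller or mixed changes. Plastid ribosomal proteins rose for 21 of 36 tested, with PSRP3/1 up by 3.73 and GHS1 by 2.09. Aminoacyl-tRNA synthetases, which load tRNAs, rose for 22 of 44. Translation initiation and elongation factors (23 rose and 12 fell among 74 tested) and ribosome biogenesis (8 rose and 7 fell among 49 tested, median -0.04, with 13 and 11 without untreated replicate 2) were near or below the share of all genes that rose. FIB2, a fibrillarin of the nucleolus, rose by 1.88.

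The subunits of the 26S proteasome, which degrades ubiquitinated proteins, were mostly not called, with 7 rose and 4 fell among 37 tested and a median of 0.19. RPT3, an ATPase subunit of the regulatory particle on chromosome 5 at 23569052 to 23571854 (TAIR10.1), stood at 290.2, 257 and 291 CPM in the untreated libraries and 1.54, 24.3 and 15.8 CPM after KAR2, a change of -4.34 ± 0.85 (adjusted p = 0.00438). KAR2 replicate 1 was the lowest library. The change kept its call when only the row named by its AGI id was counted and under the other alternatives run. PBB1, a catalytic core subunit, rose by 1.39 and PAD2 of the core fell by 0.94.

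Central carbon metabolism rose. In glycolysis 20 rose and 5 fell among 37 tested and in the tricarboxylic acid cycle 11 rose and 3 fell among 21 tested, with medians of 0.97 and 1.05. The phosphoglycerate mutase iPGAM1 and the hexokinase HXK3 rose by 4.50 and 4.38, and the fumarase FUM1 by 3.16. PFK2, a phosphofructokinase, fell by 2.04 and the plastid pyruvate kinase subunit PKP-BETA1, which serves oil synthesis in developing seeds, fell by 1.14.

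The nuclear-encoded respiratory chain was close to the median of all genes, with 17 rose and 14 fell among 75 tested and a median of 0.13, and 7 fell without KAR2 replicate 1. Among alternative routes, the uncoupling protein PUMP1 and the external dehydrogenase NDB3 rose by 2.73 and 4.74 and the alternative oxidase AOX2 fell by 1.82. Among fermentation and hypoxia genes 7 rose and 2 fell among 12 tested. The pyruvate decarboxylase PDC2 fell by 1.91 and ADH1, alcohol dehydrogenase, by 0.79, while AT4G33070, also a pyruvate decarboxylase gene, rose by 2.83.

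Genes of the mitochondrial genome fell or were not called. Of 77 mitochondrial genome genes tested 28 fell and none rose, with a median of -0.82. This count was 14 without KAR2 replicate 1, 18 without KAR2 replicate 3 and 12 with libraries scaled by their total alone. Of 100 plastid genome genes tested, 2 rose and 2 fell, and over the leave-one-out fits between 0 and 6 rose and between 1 and 8 fell (6 rose without untreated replicate 2, 8 fell without untreated replicate 3). The share of gene counts from the mitochondrial genome was 1.02% ± 0.151 (SD, n = 3) untreated and 0.922% ± 0.277 (SD, n = 3) after KAR2 (exact permutation test, two-sided, p = 0.7), so the summed share did not differ beyond its spread.

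Tubulin genes rose where they were called. All 11 tubulins called, of 18 tested, rose, and TUB1 stood at 1.69, 1.03 and 1.83 CPM in the untreated libraries and 41.0, 45.2 and 48.1 CPM after KAR2, a change of 4.90 ± 0.23. TUB5 rose by 4.50, MAP65-2, which bundles microtubules, by 3.49 and ACT11, an actin, by 3.88. Among actins, profilins and formins 9 rose and 1 fell among 22 tested. Kinesins and microtubule-associated proteins were close to all genes, with 10 rose and 3 fell among 29 tested, and between 5 and 15 rose when single libraries were left out (5 without KAR2 replicate 3, 15 without untreated replicate 2).

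Among DNA replication genes 20 rose and 5 fell among 40 tested, with a median of 0.82. With at least 10 counts in each library, 11 rose and 5 fell among 28 tested, with a median of 0.31. PCNA1, the sliding clamp of DNA polymerase, and PRL (MCM7), a subunit of the replicative helicase, rose by 3.39 and 3.49, while POLD4 fell by 1.02. Among cyclins and cyclin-dependent kinases 14 rose and 3 fell among 31 tested, but 7, 7 and 8 rose without KAR2 replicates 1, 2 and 3 and 9 with the replicate block. SIM, an inhibitor of cell division, rose by 2.45. Core histones, which are needed as DNA is copied, were split, as 11 rose and 9 fell among 37 tested, and the histone gene AT1G08170 fell by 3.31. Without KAR2 replicate 1 or 3, 5 histone genes rose and 6 fell, and without untreated replicate 2, 10 rose and 14 fell. Without untreated replicate 3, 7 rose and 7 fell.

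Regulators differed by family. HD-ZIP and homeobox factors rose for 35 of 70 tested and 7 fell (4 without KAR2 replicate 3), with HB31 and HB23 up by 4.59 and 3.11 and WOX2, known from the early embryo, down by 1.02. Of GRF, GIF and TCP growth regulators 13 rose and 5 fell among 29 tested, and GRF7 (AT5G53660) rose by 2.56. AP2/ERF factors (25 rose and 21 fell among 74 tested) and NAC factors (14 rose and 11 fell among 46 tested) were near all genes. With at least 10 counts in each library, 11 AP2/ERF factors rose and 21 fell among 49, and 2 NAC factors rose and 11 fell among 25. Under this filter, which leaves out genes with few counts in any library, 4227 of all 14391 genes rose and 3719 fell. Without KAR2 replicate 3, and with the replicate block, 9 NAC factors rose and 11 fell. ABI4, an AP2 factor of the ABA response, stood at 7.35, 8.52 and 9.40 CPM in the untreated libraries and 68.8, 70.9 and 65.0 CPM after KAR2, a change of 3.01 ± 0.14. The stress-related NAC genes RD26 and NAC032 fell by 2.41 and 2.06. Of WRKY factors 7 rose and 10 fell among 31 tested, with WRKY17 up by 2.05 and WRKY4 down by 2.04. With libraries scaled by their total alone 8 rose and 7 fell, where 7105 of all 17226 genes rose and 2267 fell. Without untreated replicate 2, 12 WRKY factors rose and 11 fell.

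Auxin genes rose mainly in transport and metabolism, where 22 rose and 2 fell among 32 tested. The efflux carrier EIR1 (PIN2) and the influx carrier AUX1, both known from the root tip, rose by 3.99 and 3.75, and BRU6 (GH3.2), which conjugates auxin to amino acids, fell from 106, 95.4 and 109.7 to 22.9, 28.2 and 21.7 CPM. Of SAUR genes, small auxin-induced growth genes, 13 rose and 6 fell among 22 tested. AT4G34790 rose by 5.24 and SAUR36 fell by 2.44. With at least 10 counts in each library, 2 SAUR genes rose and 6 fell among 11 tested. Under this filter 4227 of all 14391 genes rose and 3719 fell. The larger number of increases in the main fit thus rested on genes with few counts in some library. Of Aux/IAA and ARF factors 11 rose and 5 fell among 31 tested, and 7 rose without KAR2 replicate 3.

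Other hormone groups were mixed. Of brassinosteroid genes 15 rose and 7 fell among 30 tested (3 fell when any single KAR2 library was left out), with the transcription factor BZR1 up by 2.36 and ROT3, a synthesis enzyme, down by 1.17. Of cytokinin genes 6 rose and 4 fell among 13 tested, with the oxidase CKX5 and the activating enzyme gene LOG8 up by 3.63 and 2.82. RR3, a type-A response regulator, fell by 1.76 and lost its call under 7 alternatives. Of jasmonate genes 9 rose and 7 fell among 28 tested, with a median of 0.00. Of ethylene genes 7 rose and 6 fell among 20 tested, and 3 fell without KAR2 replicate 2 or 3 and 9 without untreated replicate 1.

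Genes of the plant surface rose with few exceptions. Of cutin, wax and fatty acid elongation genes 34 of 42 tested rose and 1 fell, with a median of 2.31. CER1, which acts in the making of wax alkanes, rose by 5.35 and LACS2, which activates fatty acids for cutin, by 4.84. GDSL lipases, a large family of esterases, rose for 33 of 42 tested and 2 fell, with a summed level of 521 to 683 CPM untreated and 3011 to 3142 CPM after KAR2. The GDSL gene AT4G26790 rose by 5.28.

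Glucosinolate genes rose, with 17 rose and 3 fell among 25 tested. CYP83B1, which oxidises aldoximes on the way to indole glucosinolates, stood at 4.92, 5.32 and 14.5 CPM in the untreated libraries and 449, 424 and 408 CPM after KAR2, a change of 5.69 ± 0.47, and FMO GS-OX4 rose by 4.82. AOP3 fell by 1.32. Among myrosinases, which hydrolyse glucosinolates, their associated proteins and other beta-glucosidases such as BGLU4, 16 rose and 5 fell among 26 tested. The summed level of this list was 4406 to 6110 CPM untreated and 2143 to 2259 CPM after KAR2. BGLU4 rose by 4.01, NSP2, a nitrile specifier protein, fell by 3.20 and BGLU19 fell by 2.79. Sulfur assimilation, which feeds these compounds and cysteine, rose for 14 of 23 tested, with APR1 and OASC up by 2.45 and 2.17.

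Detoxification and defence genes did not rise as groups. Of glutathione S-transferases 9 rose and 14 fell among 35 tested, with GSTF3 and GSTF2 down by 2.75 and 2.28 and GSTF10 up by 2.11, but 13 rose and 9 fell with libraries scaled by their total alone, and 9 fell without KAR2 replicate 2. Of cytochromes P450 35 rose and 41 fell among 100 tested, and CYP71B14 fell by 3.75. With libraries scaled by their total alone 41 P450 genes rose and 26 fell. Under that scaling 7105 of all 17226 genes rose and 2267 fell, so both families kept a larger share of decreases than all genes. Of 6 pathogenesis-related proteins and defensins tested, 4 fell and 1 rose. PDF2.1 and LCR67, both defensins, fell by 3.16 and 2.49, and LCR69 of the same family rose by 1.21. Of phenylpropanoid and lignin genes 6 rose and 10 fell among 21 tested, with CAD9 up by 5.38, LAC8 up by 5.02 and PAL4 down by 1.98, and of 10 flavonoid genes tested 5 rose and none fell. UDP-glycosyltransferases were evenly split, with 15 rose and 15 fell among 45 tested.

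Several gene families held members that moved in opposite directions, and the following were chosen after their values were seen. SDH2-3, a seed form of the iron-sulfur subunit of succinate dehydrogenase, stood at 254, 275 and 251 CPM in the untreated libraries and 63.2, 66.6 and 66.2 CPM after KAR2, a change of -1.99 ± 0.11. SDH2-1 stood at 26.6, 15.2 and 23 CPM in the untreated libraries and 136, 125 and 128 CPM after KAR2 and SDH2-2 at 3.37, 2.17 and 3.22 CPM in the untreated libraries and 46.5, 41.4 and 41.9 CPM after KAR2, changes of 2.59 ± 0.21 and 3.90 ± 0.19. The form known from seeds fell while both others rose. The 3 values of each group did not overlap in any of them, but they were chosen with their values known. Over all genes tested, groups did not overlap for 36.8% that were higher and 28.8% that were lower.

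The asparagine synthetases divided in the same way. ASN1, known to be induced in darkness, stood at 94.6, 85.6 and 87.0 CPM in the untreated libraries and 10.1, 11.9 and 11.5 CPM after KAR2, a change of -2.99 ± 0.13. ASN2 and ASN3 changed by 2.09 ± 0.12 and 2.41 ± 0.15. Across glutamine, asparagine and glutamate metabolism 6 rose and 4 fell among 10 tested.

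For ethylene, ACS2, a synthase of the precursor ACC, stood at 63.0, 56.8 and 53.6 CPM in the untreated libraries and 4.80, 5.80 and 5.34 CPM after KAR2, a change of -3.44 ± 0.14, while ACO1 (AT2G19590), which turns ACC into ethylene, stood at 1.75, 2.21 and 4.79 CPM in the untreated libraries and 96.8, 91.7 and 82.0 CPM after KAR2, a change of 4.93 ± 0.37. The receptor genes ERS1 and ERS2 changed by 3.22 ± 0.13 and -1.30 ± 0.12. Among catalases, CAT2 (AT4G35090) and CAT3 (AT1G20620) changed by 1.04 ± 0.18 and -2.39 ± 0.19.

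**Figure D4:**
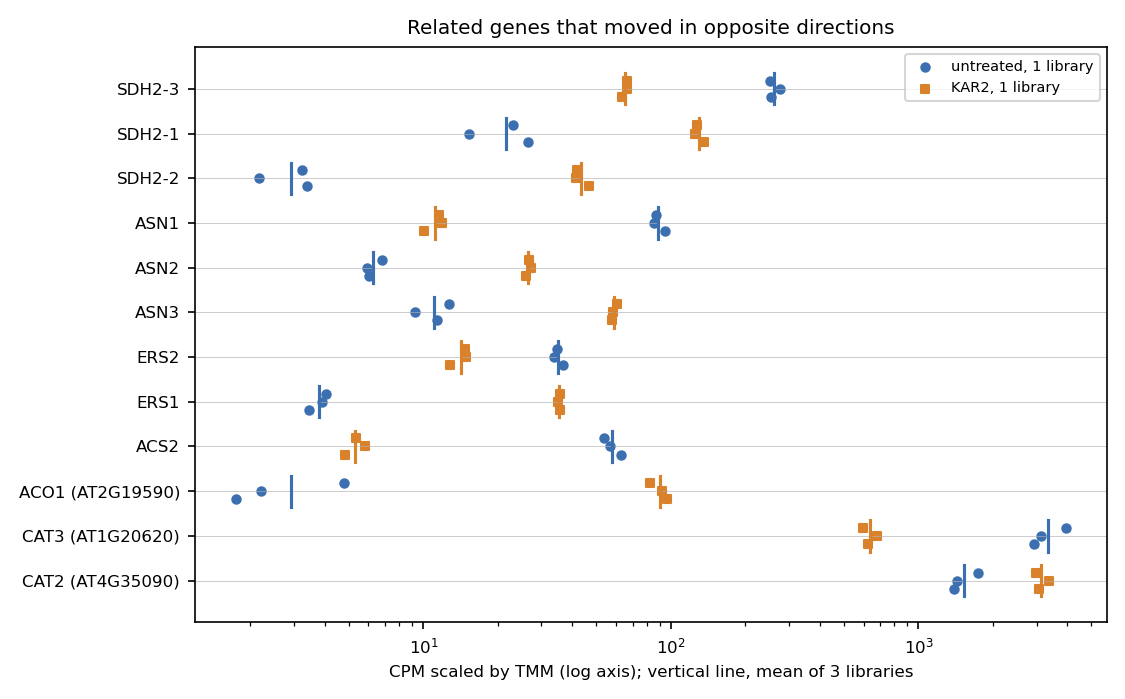
Level in CPM on a log axis of members of 5 groups of related genes in each of the 3 untreated (circles) and 3 KAR2 (squares) libraries. The groups are succinate dehydrogenase subunit 2, asparagine synthetases, ethylene receptors, ethylene synthesis enzymes and catalases. Vertical lines mark group means. SDH2-3, ASN1, ERS2, ACS2 and CAT3 were higher in all 3 untreated libraries, and the genes beside them were higher in all 3 KAR2 libraries. The genes were chosen after their values were seen, so these directions are not a result.

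Some genes were counted in a single group. Of the genes tested, 324 had no count in any untreated library, and all of them were called higher, while 12 had no count after KAR2 and were called lower. These genes passed the filter on low counts only through the group where they were present, so they had to differ. They include 78 members of the lists above with no count in untreated seeds, 8 of them GDSL lipases, and 1 member with no count after KAR2, and the family counts hold these genes. RBCS1B, a small subunit of Rubisco, had 0 counts untreated and 869 after KAR2 in sum, at least 208-fold higher with a floor of 3 counts over the group. SCPL9, a serine carboxypeptidase-like protein, had 735, at least 176-fold higher, and SDS, a meiotic cyclin, had 587, at least 141-fold higher. In the other direction ATG18C, an autophagy protein of the list above, had 232 counts untreated and 0 after KAR2, at least 108-fold lower. These 4 genes were chosen after their values were seen.

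Calls were also counted by the type of gene. Among 273 long non-coding RNA genes tested, 15.4% rose and 25.3% fell, and among 76 other non-coding RNA genes 4 rose and 26 fell. Of 91 snoRNA genes 5 rose and 5 fell, and of 9 miRNA genes 2 rose and 2 fell, whereas among 16556 protein-coding genes 5078 rose and 3988 fell. The libraries were made from a directional kit, and whether counting used strand was not given, so reads of antisense partners may be shared. The 5 nuclear chromosomes were alike, with 29.7 to 30.7% of tested genes higher and 23.2 to 24.7% lower on each.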

How the data were processed

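Per the labels, RNA of whole seeds was read as single-end fragments from a directional library kit. The authors mapped reads with HISAT2 2.1.0 to TAIR10, removed multi-mapped reads with SAMtools 1.10, assembled transcripts with StringTie 2.1.3 on Araport11 and deposited raw counts per merged gene, tested by them with DESeq2 1.18.1. Removing multi-mapped reads lowers the counts of near-identical genes; the strand used in counting is not stated in the sources used here. The deposited size-factor-normalised tables of single libraries were not used.

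The matrix held 37054 rows. Rows with the same AGI id were summed to 32830 genes, 1105 rows naming no gene were left out, and 10581 genes had no count in the 6 libraries. edgeR 4.0.16 (R 4.3.3, limma 3.58.1) fitted the 6 libraries by quasi-likelihood with TMM scaling after filterByExpr (minimum count 10, minimum total 15), with Benjamini-Hochberg adjustment. The steps were tested on simulated data. Single values were compared by exact permutation of samples.

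Members and lists were chosen with earlier results of these data known, and members matched only through a shared symbol or domain name were removed from their annotation after values had been seen. Genes were named by rule: the 10 with the largest difference in mean CPM in each direction, up to 2 called members per list and direction with the largest fold at an average log2 CPM of at least 3, each without overlap of replicates, KAI2 and the markers. The labels do not say whether replicate numbers pair the samples, and they were not read as pairs. Same-numbered libraries correlated at 0.01, -0.14 and -0.07 in their deviations over 9788 genes, which with 3 libraries per group cannot decide it. Alternatives were RLE scaling, scaling by total, DESeq2 1.42.0, other filters, all 9 libraries, a replicate block, other row handling and leaving out each library.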

Additional observations from a re-analysis of the deposited data

Results flagged for a closer look

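Reads that fell in assembled transcripts naming no gene were left out of every comparison, yet they took 17.6 to 28.9% of the reads of a library. Among 785 such transcripts tested in the same way with edgeR's quasi-likelihood test, 105 were higher and 172 lower after KAR2. They have no gene name in the file, and what they represent was not tested.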

How the results depend on the processing

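Over the alternative settings the counts of genes that rose ran from 4104 to 7105 and those that fell from 2267 to 4743. Scaling by library total alone gave the most genes higher and the fewest lower, with 2267 lower (against 4126) and 1207 lower at least 2-fold (against 2213), since it shifted the median of all genes by 0.40. Leaving out each library in turn gave 4104 to 5504 genes higher, 2981 to 4743 lower, 3266 to 3816 higher at least 2-fold and 1964 to 2408 lower at least 2-fold. The difference in the share of the 10 most abundant genes ran from -11.66 to -8.96 percentage points over the same fits, and was -12.47 with rows naming no gene kept. DESeq2 called 5452 genes higher and 4304 lower. With replicate number as a block, 4488 genes were higher and 3379 lower. Not every library correlated best with its own number, and whether the numbers mark pairs is not known. The block ended the call of 12 named genes. Sign reversals among named genes were AT1G32710, a cytochrome c oxidase gene (0.90, not called, with the row of its AGI id alone), and CYCA3;4 (0.0053) and MAP65-1 (0.070), neither called, when scaled by total alone. The cause was not tested. Of 148 counts over lists, 49 moved by more than 1.5 times under scaling by total and 35 under a minimum of 10 counts in every library, which leaves out genes at 0 in a group. Leaving out KAR2 replicate 1, 2 or 3 moved 27, 23 and 26 of them, leaving out untreated replicate 1, 2 or 3 moved 11, 17 and 9, and the replicate block moved 17. With 3 libraries per group, genes at a few counts were limited by depth, and their fold changes depend on the prior count of the fit.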
